A study of Homo sapiens with 12 samples.

Results

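The cytosolic and mitochondrial heat-shock chaperones were described here in leukaemia cells deprived of arginine: 39 genes out of the 60664 in the count table. They were taken by symbol and comprise HSP70 and HSP110 proteins, J proteins and a BAG cochaperone, HSP90 and its cochaperones, the mitochondrial chaperones, 2 small heat-shock proteins, the CCT ring and 2 heat-shock factors. The list was selected on earlier results of these same libraries, in which heat-shock genes were lower in treated TOM-1 cells. Values for the ADI-PEG20 change in TOM-1 are therefore given as a description, without p-values. RNA was measured by poly(A) RNA-seq in 2 human B-cell precursor acute lymphoblastic leukaemia lines, TOM-1, which carries BCR-ABL1, and RS4;11, which carries a KMT2A rearrangement. Each line was sampled in steady-state culture (control) and after 24 h with ADI-PEG20 at 1000 ng/ml, with 3 libraries in each of the 4 groups. ADI-PEG20 is a pegylated bacterial arginine deiminase that converts extracellular arginine to citrulline. Both lines are single established lines grown in culture, and nothing in the sources used here says that the libraries of a group came from separate cultures, so p-values measure only the spread between these libraries, which may be technical.

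Chaperones bind unfolded protein and help it to fold. HSP70 proteins bind short hydrophobic stretches in a cycle driven by ATP, which J proteins (HSP40) start by stimulating ATP hydrolysis and which HSP110 and BAG proteins reset by exchanging the nucleotide. Clients such as kinases and steroid receptors pass from HSP70 to HSP90 through the adaptor STIP1 and are handled there by further cochaperones. The CCT ring, also called TRiC, folds actin and tubulin, and HSP60 with its HSP10 lid folds proteins inside mitochondria. Heat-shock factors, chiefly HSF1, switch on many of these genes when unfolded protein accumulates, by binding inverted repeats of the letters GAA, the heat-shock element. BCR-ABL1 is a known client of HSP90.

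Total counts per library ran from 18958144 to 35956959. One library stood apart: TOM-1 control replicate 3 had reads for 14963 genes against 19857 to 21997 in the others, and ribosomal protein genes took 19.7% of its counts against 8.91% to 9.17% in the other TOM-1 controls. The main TOM-1 values are given with all libraries and without this one. The labelled B-lineage was seen in the libraries, with 10 of 10 B-lineage markers at 1 CPM (a count scaled to library depth) or more in every group. Of 12 markers of other blood cells, 2 or 3 reached that level, among them CSF1R, with a mean of 4.21 CPM in TOM-1 control and 16.7 CPM in RS4;11 control. The 12 together took 41.5 to 95.8 CPM in TOM-1 control, against 7265 to 8480 CPM for the B-lineage markers. In RS4;11 control these ranges were 63.4 to 79.1 and 2213 to 2340 CPM. The T-cell genes CD3E, CD3D and CD2 were at 0 in every group but treated RS4;11, and the platelet gene PPBP was at 0 in all 4 groups. CPM values here are depth-scaled with TMM factors.

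The regulatory letters of these genes are given first, since the heat-shock element is the site through which heat-shock factors act on many of them. Promoters came from RefSeq (GRCh38.p14), as windows of 300 bases from 250 before to 50 after each annotated start. The table held 34 of the 39 genes, in 50 windows. A pair of alternating units, GAANNTTC or TTCNNGAA on either strand, lay in the windows of 18 of the 34 genes (52.9%), against 4417 of all 27305 genes in the table (16.2%). The longer form, in which another alternating unit follows after 2 further bases of any kind, contains the pair. It was found for 7 of the 34 genes (20.6%) and for 166 of the 27305 (0.608%), or by windows in 7 of 50 (14.0%) and 172 of 35116 (0.490%). A match describes letters only, and a window without one says nothing about a factor's binding. The stretches that hold the longer form are printed below so that their letters can be compared. Each is written 5′ to 3′ on the gene's own strand with the matching letters in capitals.
HSPA8 far, chr11:123062346-123062374, minus strand: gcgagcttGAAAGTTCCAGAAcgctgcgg
HSPA8 near, chr11:123062171-123062199, minus strand: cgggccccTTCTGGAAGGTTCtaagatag
HSPD1, chr2:197500060-197500090, minus strand: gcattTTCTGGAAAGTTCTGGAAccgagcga
HSP90AA1, chr14:102087112-102087140, minus strand: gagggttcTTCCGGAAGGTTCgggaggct
HSP90AB1 far, chr6:44247770-44247798, plus strand: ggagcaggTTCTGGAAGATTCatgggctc
HSP90AB1 near, chr6:44247823-44247851, plus strand: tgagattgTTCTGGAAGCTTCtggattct
DNAJA1, chr9:33025268-33025296, plus strand: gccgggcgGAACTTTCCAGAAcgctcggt
DNAJB6, chr7:157336865-157336893, plus strand: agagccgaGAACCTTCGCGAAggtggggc
CHORDC1, chr11:90223079-90223117, minus strand: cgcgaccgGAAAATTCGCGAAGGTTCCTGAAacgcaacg

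The matches began 230 and 55 bases before the start of HSPA8, 88 before that of HSP90AA1, 165 and 112 before that of HSP90AB1, 131 before that of DNAJB6 and 4 bases after that of DNAJA1. In CHORDC1 3 overlapping matches formed 1 run that began 60 bases before the start, and in HSPD1 2 overlapping matches began 245 bases before 1 of its annotated starts. HSPD1 and HSPE1 start close to each other on opposite strands of chromosome 2. The HSPD1 stretch lies 289 to 319 bases before the RefSeq start of HSPE1, outside the HSPE1 window, and downstream of a second HSPD1 start whose own window, chr2:197500225-197500524, holds no match. For contrast the whole window of HSPA8 is printed with that of HSPA9, the mitochondrial HSP70, whose RNA went the other way in treated TOM-1. These 2 windows were picked by the direction of their RNA, so no link between letters and direction is read from them. Capitals mark the longer form in HSPA8 and the single pair of units in HSPA9.
HSPA8, chr11:123062087-123062386, minus strand: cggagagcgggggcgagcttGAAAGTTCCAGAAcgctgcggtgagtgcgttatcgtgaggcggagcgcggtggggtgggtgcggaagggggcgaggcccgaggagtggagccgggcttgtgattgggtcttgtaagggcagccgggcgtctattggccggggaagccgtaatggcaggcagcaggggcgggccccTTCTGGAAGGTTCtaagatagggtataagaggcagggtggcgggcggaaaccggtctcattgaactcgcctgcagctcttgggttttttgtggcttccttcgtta
HSPA9, chr5:138575352-138575651, minus strand: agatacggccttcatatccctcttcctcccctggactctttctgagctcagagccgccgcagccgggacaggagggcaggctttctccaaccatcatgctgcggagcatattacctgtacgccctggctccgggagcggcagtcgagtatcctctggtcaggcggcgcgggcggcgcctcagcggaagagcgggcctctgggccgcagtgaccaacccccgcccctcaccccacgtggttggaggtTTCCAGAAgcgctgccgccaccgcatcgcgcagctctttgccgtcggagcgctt

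With ADI-PEG20 most chaperone RNAs fell in TOM-1, and 0 of 38 were called in RS4;11. The 39 genes together took 1.39%, 1.39% and 1.42% of all counts in the TOM-1 control libraries and 0.766%, 0.754% and 0.745% in the treated ones. In RS4;11 their share was 2.36%, 2.29% and 2.29% in control and 2.18%, 2.17% and 2.16% in treated libraries. Neither line's treated libraries overlapped its controls in this share, but the drop in TOM-1 was from 1.40 ± 0.018% (1.39% without control replicate 3) to 0.755 ± 0.010% (SD, n = 3), against 2.31 ± 0.042% to 2.17 ± 0.010% in RS4;11. A fall in share was not particular to chaperones: ribosomal protein genes went from 9.04% (mean without control replicate 3) to 5.96% in TOM-1. In RS4;11 they took 9.28% in control and 9.36% in treated libraries. Since these are bulk libraries, fewer cells making a transcript and less of it per cell cannot be told apart.

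Of the 39 genes, 38 passed the filter on low counts and HSPA4L did not. edgeR's quasi-likelihood test, with Benjamini-Hochberg adjustment over 17349 genes and a threshold of 0.05, called 29 lower and 3 higher in treated TOM-1 (HSPA4, HSPA9 and HSF2). The background over all tested genes was 15.9% lower and 15.9% higher, and since the list was chosen on this contrast nothing is read from the comparison. By size, 16 were called at least 2-fold lower and 1 at least 2-fold higher, against 1365 and 1423 of all 17349 genes. Without control replicate 3 these were 14 and 1, against 914 and 1330 of 18321. With all libraries the median log2 fold change was -0.77, where that of all tested genes was 0.05. Genes not called were DNAJA2, DNAJB4, DNAJB6, BAG3, CHORDC1 and CCT8. Without control replicate 3, 30 were called lower and 5 higher, over a background of 19.8% lower and 21.8% higher, and the median was -0.64. The added calls were DNAJB6 (lower), CHORDC1 (higher) and HSPA4L (higher), which had 0 counts in TOM-1 control and was tested only through other groups. Treated libraries lay wholly below the controls for 31 of 38 genes and wholly above for 4, with a background of 20.1% lower and 26.1% higher. Without control replicate 3 these counts were 31 and 4 over 29.1% and 32.0%.

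**Figure D1:**
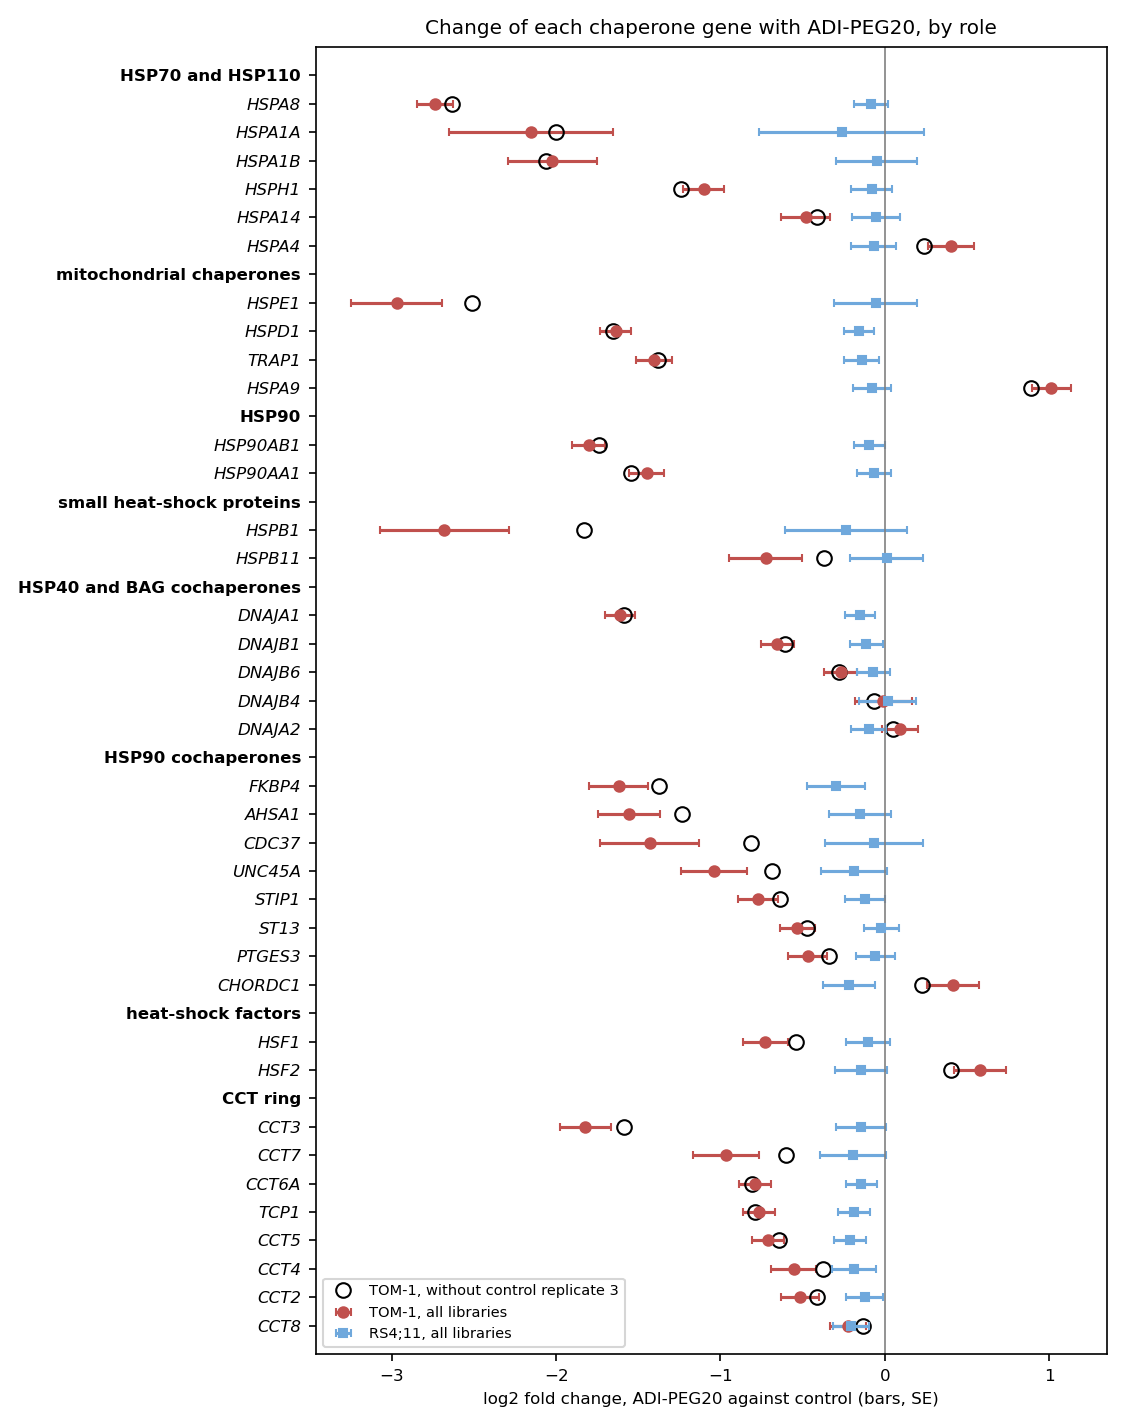
The log2 fold change of 37 genes with ADI-PEG20, grouped by role. Filled circles are TOM-1 with all libraries (bars, SE), open circles TOM-1 without control replicate 3, and squares RS4;11 (bars, SE). In TOM-1 the values run from -2.97 for HSPE1 to 1.01 for HSPA9, and the RS4;11 squares lie close to 0. BAG3 and HSPA4L, at or near 0 counts in TOM-1, are left out.

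The cytosolic HSP70 RNAs of the list fell in TOM-1, from the constitutive form to the inducible pair. Of the HSP110 exchange factors HSPH1 fell, while HSPA4 and the barely detected HSPA4L went up. HSPA8, the constitutive cytosolic HSP70 (HSC70), measured 1822, 1816 and 2234 CPM in the TOM-1 control libraries and 299, 293 and 289 CPM in the treated ones. In RS4;11 it measured 2429, 2404 and 2385 CPM in control and 2302, 2314 and 2205 CPM with ADI-PEG20. The treated TOM-1 libraries thus lay far below every other library, and its fall was 6.67-fold (log2 -2.74 ± 0.11 SE), or -2.63 without control replicate 3. In linear terms the TOM-1 group mean went from 1958 ± 239.7 to 293 ± 4.89 CPM (SD, n = 3).

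The stress-inducible pair HSPA1A and HSPA1B, neighbours at chr6:31815464-31817946 and chr6:31827735-31830255 (GRCh38), encode almost the same protein from almost the same sequence. How the authors' counting treated reads that match both is not given in the sources used here, and HSPA1B shares 36.5% of its exonic bases with another annotated gene on its strand. HSPA1A measured 5.60, 7.45 and 8.72 CPM in TOM-1 control, 0.899, 1.60 and 2.36 with ADI-PEG20, 2.45, 0.700 and 1.53 in RS4;11 control and 1.91, 0.826 and 1.13 CPM in treated RS4;11. HSPA1B measured 15.0, 12.1 and 12.9 CPM in TOM-1 control, 4.75, 2.98 and 2.16 with ADI-PEG20, 41.9, 46.4 and 61.5 in RS4;11 control and 44.0, 41.3 and 59.5 CPM in treated RS4;11. Both were lower in every treated than in every control TOM-1 library, and overlapped between the RS4;11 groups. Their log2 changes in TOM-1 were -2.15 ± 0.50 and -2.02 ± 0.27 (SE), and -2.00 and -2.06 without control replicate 3. The sum of both, which does not depend on how reads were split between them, changed by -2.07 ± 0.19 in TOM-1 (-2.04 without control replicate 3) and by -0.05 ± 0.18 in RS4;11. Per kilobase of exonic length, the counts of HSPA8 stood at 76.9 ± 13.5 times those of HSPA1B alone in TOM-1 control (SD, n = 3). The ratio was 25.8 ± 5.10 in RS4;11 control (SD, n = 3), and 70.4 in TOM-1 control without replicate 3. Reads that match both inducible genes may be missing from these counts, so the pair's part of HSP70 RNA cannot be read from them.

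HSPH1, an HSP110 that exchanges the nucleotide of HSP70, measured 197, 208 and 148 CPM in TOM-1 control and 87.1, 83.5 and 86.5 CPM with ADI-PEG20. RS4;11 had 581, 574 and 588 CPM in control and 561, 533 and 555 CPM when treated. The TOM-1 groups did not overlap, with a log2 change of -1.10 ± 0.12 (SE), and -1.24 without control replicate 3. HSPA14, a ribosome-associated HSP70 that shares 17.4% of its exonic bases with a second locus of the same symbol, fell by 0.48 on the log2 scale, and by 0.41 without control replicate 3. HSPA4, another HSP110, went up, at 0.40 ± 0.14 (SE), and 0.24 without control replicate 3. That call was marginal: it held in 8 of 21 alternative settings, though the direction held in all of them. HSPA4L, a further HSP110, had 0 counts in the 3 TOM-1 control libraries and 2, 14 and 5 counts in the treated ones. Against the limit that 0 counts allow (3 counts per library) the treated mean was at least 2.22-fold higher, and at least 1.15-fold without treated replicate 2.

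The cochaperones that drive and reset the HSP70 cycle moved unevenly. DNAJA1, a class A J protein, measured 304, 302 and 319 CPM in TOM-1 control and 99.0, 104 and 100.3 CPM with ADI-PEG20, and in RS4;11 505, 482 and 491 against 439.8, 461 and 430.3 CPM. It fell 3.05-fold in TOM-1 (log2 -1.61 ± 0.09 SE), and -1.59 without control replicate 3. DNAJB1, the class B J protein that is the classic partner of inducible HSP70, measured 107, 105 and 118 CPM in TOM-1 control and 67.6, 73.2 and 68.7 CPM with ADI-PEG20. Its RS4;11 libraries held 216, 219 and 234 CPM in control and 200.2, 204 and 215 CPM treated. The TOM-1 groups stood apart by -0.65 ± 0.10 (SE), and -0.60 without control replicate 3, a smaller shift than that of DNAJA1. DNAJA2, DNAJB4 and DNAJB6, other J proteins, were not called, at 0.09, -0.01 and -0.27 (0.05, -0.07 and -0.28 without control replicate 3). DNAJB6 was called without that library. BAG3, a heat-inducible exchange factor that links HSP70 to autophagy, had 0 counts in all 6 TOM-1 libraries. RS4;11 control libraries had 1.55, 1.15 and 0.239 CPM of it and treated ones 1.31, 0.777 and 0.154 CPM. The control mean of RS4;11 was at least 7.99-fold the limit that 0 counts allow in TOM-1 (3 counts per library), and at least 5.68-fold when RS4;11 control replicate 1 was left out.

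HSP90 RNA was among the most abundant in both lines, and both cytosolic genes fell in TOM-1. HSP90AA1, the inducible alpha form, measured 2133, 2098 and 1731 CPM in TOM-1 control and 753, 727 and 704 CPM with ADI-PEG20. RS4;11 held 4571, 4274 and 4183 CPM in control and 4212, 4179 and 4065 CPM treated. HSP90AB1, the constitutive beta form, measured 1805, 1783 and 2050.1 CPM in TOM-1 control and 545, 547 and 524 CPM with ADI-PEG20, and in RS4;11 3883, 3801 and 3571 against 3558, 3635 and 3359 CPM. For both genes the lowest TOM-1 control library was more than 2 times the highest treated one. The alpha form changed by -1.45 ± 0.11 and the beta form by -1.80 ± 0.10 (log2, SE), or by -1.54 and -1.74 without control replicate 3. Per kilobase, the beta to alpha ratio was 1.69 ± 0.34 in TOM-1 control, 1.30 ± 0.026 with ADI-PEG20, 1.52 ± 0.038 in RS4;11 control and 1.49 ± 0.038 in treated RS4;11 (SD, n = 3). The lowest TOM-1 control ratio was 1.49 and the highest treated one 1.33, so these libraries did not overlap. Without control replicate 3 the TOM-1 control ratio was 1.49, within the range of the treated RS4;11 libraries (1.46 to 1.53).

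Of the 8 HSP90 cochaperones, 7 fell in TOM-1 and CHORDC1 did not. FKBP4 (FKBP52), a peptidyl-prolyl isomerase of steroid receptor complexes, had the largest fold among them: 177, 188 and 287 CPM in TOM-1 control against 73.0, 69.8 and 69.2 CPM with ADI-PEG20. With HSPA1A it was 1 of 2 members more than 2-fold lower in RS4;11 control than in TOM-1 control, at 34.0, 32.4 and 29.4 CPM in control and 27.4, 28.0 and 22.6 CPM treated. Its log2 change in TOM-1 was -1.62 ± 0.18 (SE), and -1.37 without control replicate 3. AHSA1, which stimulates the HSP90 ATPase, changed by -1.56 (-1.23 without that library), and CDC37, the kinase-specific cochaperone, by -1.43 (-0.81). CDC37 was at 230, 231 and 604 CPM in the controls, so replicate 3 carried much of that value. UNC45A, a myosin chaperone, changed by -1.04 (-0.69), STIP1 (HOP), the HSP70 to HSP90 adaptor, by -0.77 (-0.64), ST13 (HIP), which stabilises ADP-bound HSP70, by -0.53 (-0.47), and PTGES3 (p23), which holds the closed HSP90 dimer, by -0.47 (-0.34). CHORDC1, whose promoter window holds the longest run of heat-shock letters printed above, stood at 0.41 and was not called, and at 0.22 without control replicate 3, where it was.

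Inside mitochondria the HSP60 system and TRAP1 fell while mitochondrial HSP70 rose. HSPD1 (HSP60), at chr2:197486581-197516737, measured 1117, 1119 and 1084 CPM in TOM-1 control and 371, 354 and 342 CPM with ADI-PEG20, and in RS4;11 1934, 1848 and 1768 against 1652, 1691 and 1635 CPM. HSPE1 (HSP10), its lid, at chr2:197499994-197503457, measured 92.5, 93.6 and 199 CPM in TOM-1 control, 17.8, 17.7 and 13.6 with ADI-PEG20, 162, 152 and 166 in RS4;11 control and 136, 165 and 161 CPM in treated RS4;11. The annotated exons of this pair overlap on opposite strands over 14.2% of HSPE1, and use of strand in the counting is not given, so part of their reads cannot be told apart. HSPD1 changed by -1.64 ± 0.09 and HSPE1 by -2.97 ± 0.27 (log2, SE), or by -1.66 and -2.51 without control replicate 3. The ratio of HSPD1 to HSPE1 per kilobase was 2.54 to 5.62 in the TOM-1 controls (5.57 to 5.62 without replicate 3) and 9.30 to 11.7 in the treated libraries, with 4.96 to 5.67 in RS4;11 control and 4.73 to 5.64 in treated RS4;11.

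TRAP1, the mitochondrial HSP90, measured 160.0, 147 and 164 CPM in TOM-1 control and 57.2, 62.7 and 57.8 CPM with ADI-PEG20, against 169, 159 and 149 and then 155, 140.3 and 137 CPM in RS4;11. It fell 2.65-fold in TOM-1 (log2 -1.41 ± 0.11 SE), and -1.38 without control replicate 3. TRAP1 shares 29.3% of its exonic bases with DNASE1 on the other strand. HSPA9 (mortalin), at chr5:138553756-138575724, is the HSP70 that pulls imported proteins into the matrix, and its library values are given because its direction was opposite, seen in the data. It measured 508, 478 and 376 CPM in TOM-1 control and 909, 931 and 909 CPM with ADI-PEG20, and in RS4;11 639.5, 641 and 608 against 611, 616 and 561 CPM. The treated TOM-1 libraries were the highest of all 12, and the change was 2.02-fold (log2 1.01 ± 0.12 SE), or 0.89 without control replicate 3. Set against its cytosolic relative, HSPA8 was 6.11 to 10.1 times HSPA9 per kilobase in TOM-1 control (6.11 to 6.46 without replicate 3) and 0.536 to 0.559 times with ADI-PEG20. In RS4;11 this ratio was 6.51 ± 0.15 in control and 6.50 ± 0.16 in treated libraries (SD, n = 3).

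HSPB1 (HSP27), a small heat-shock protein that holds unfolded proteins without ATP, showed how far 1 library can move a value. It measured 505, 497 and 1714 CPM in TOM-1 control and 146, 142 and 136 CPM with ADI-PEG20, and in RS4;11 1126, 1143 and 1255 against 986, 974 and 1033 CPM. Control replicate 3 was more than 3 times the others. The log2 change was -2.68 ± 0.39 with that library and -1.83 ± 0.06 without it (SE), and in both cases the groups did not overlap. HSPB11 (IFT25), which despite its name is a subunit of the intraflagellar transport complex, changed by -0.73 and by -0.37 without that library.

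**Figure D2:**
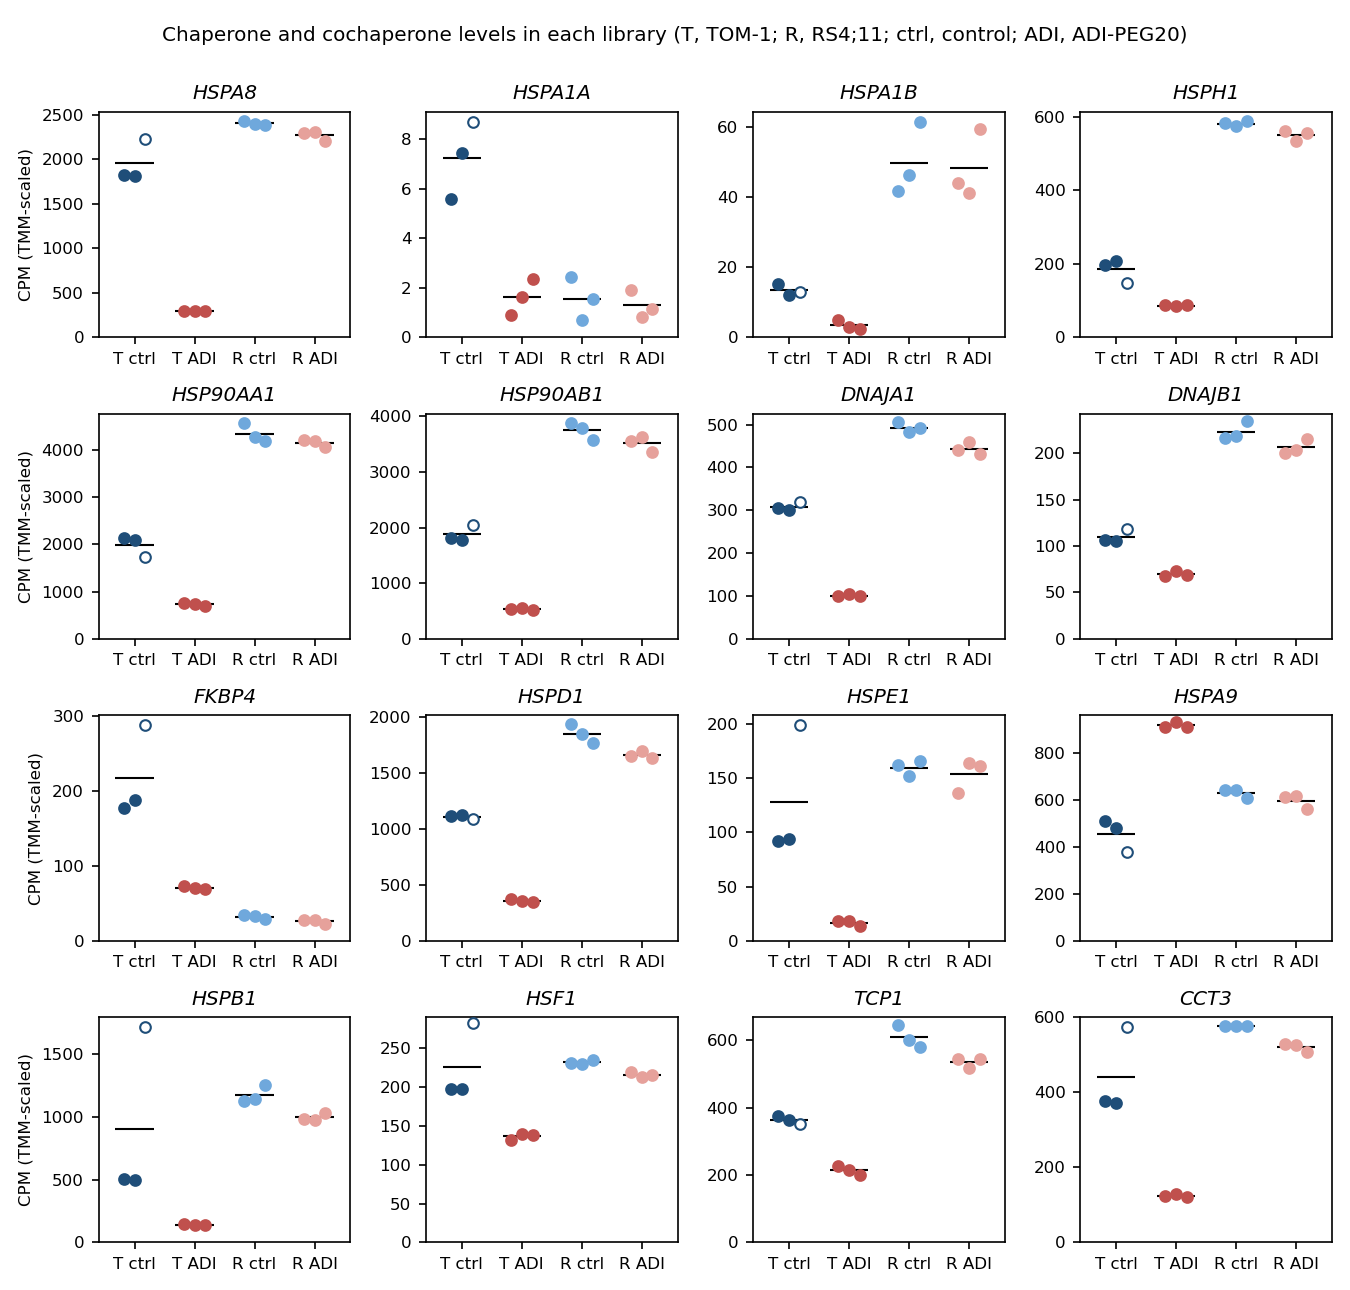
CPM of 16 genes in each of the 12 libraries, with 1 point per library, a bar at the group mean and axes that start at 0. The open point is TOM-1 control replicate 3. In TOM-1 (T) the treated points sit below all controls in every panel but HSPA9, where they sit above, and in RS4;11 (R) the groups lie close together.

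The CCT ring is built of 8 different subunits in fixed positions, 1 of each in a ring. All 8 values were below 0 in TOM-1 and 7 were called, with CCT8 (-0.23, and -0.13 without control replicate 3) the exception. TCP1 (CCT1) measured 375, 363 and 351 CPM in TOM-1 control and 226, 214 and 200.5 CPM with ADI-PEG20, and in RS4;11 646, 601 and 581 against 543, 518 and 545 CPM. Its log2 change was -0.77 ± 0.10 (SE), and -0.79 without control replicate 3. CCT3 moved most, from 377, 373 and 575 CPM in TOM-1 control to 123, 130.3 and 121 CPM, while RS4;11 held 577, 576 and 576 CPM in control and 529, 527 and 508 CPM treated. It fell 3.53-fold (log2 -1.82 ± 0.16 SE), and -1.59 without control replicate 3. The remaining called subunits, CCT2, CCT4, CCT5, CCT6A and CCT7, lay between -0.52 and -0.97, or between -0.38 and -0.81 without that library. Per kilobase, CCT3 stood at 110 ± 28.7 CPM in TOM-1 control, rank 2 of the 8 subunits, or at 93.3, rank 4, without replicate 3. With ADI-PEG20 it was the lowest at 31.1 ± 1.19, and it held rank 2 in both RS4;11 groups (143 ± 0.24 and 129.7 ± 2.87 CPM per kb; SD, n = 3). The highest subunit, CCT7, was 3.03 times the lowest in TOM-1 control (2.46 without replicate 3) and 2.86 times in treated TOM-1, where the lowest were CCT5 and CCT3, and 2.31 and 2.23 times in RS4;11, where CCT6A was the lowest. CCT5 and CCT4 share 30.1% and 12.6% of their exonic bases with genes on the other strand.

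**Figure D3:**
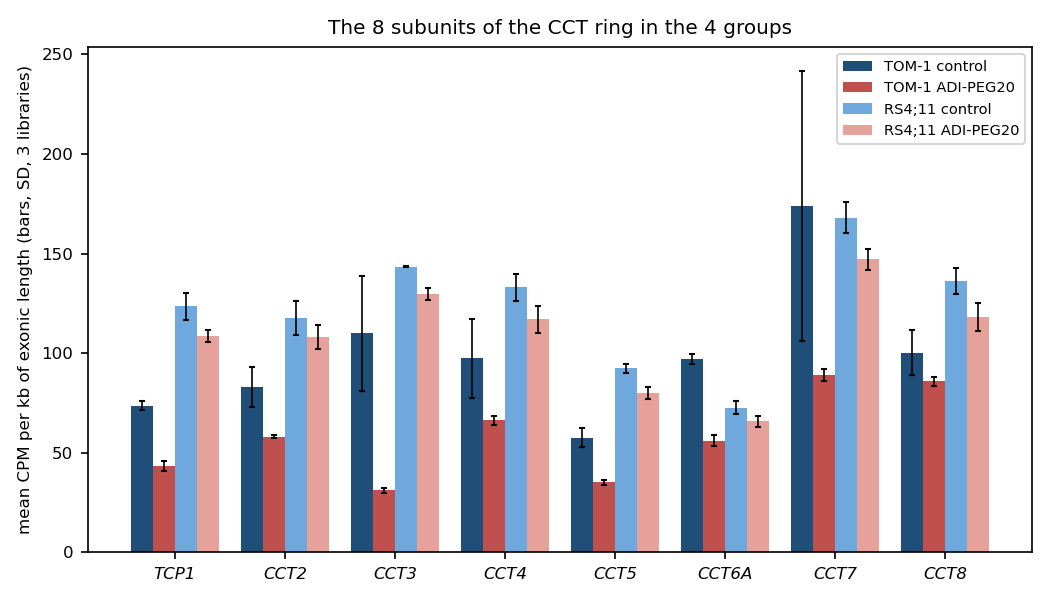
Mean CPM per kilobase of exonic length for the 8 CCT subunits in the 4 groups (bars, SD over 3 libraries). The means of all 8 are lower in treated than in control TOM-1, though CCT8 was not called, and CCT3 goes from 110 to 31.1. CCT6A alone is higher in TOM-1 control (97.0) than in RS4;11 control (72.7) by more than the SDs.

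The heat-shock factors went in opposite directions. HSF1, the main factor of the heat-shock response, measured 198, 198 and 282 CPM in TOM-1 control and 132, 139 and 138 CPM with ADI-PEG20, and in RS4;11 230.5, 229 and 235 against 219, 213 and 215 CPM. The log2 change in TOM-1 was -0.73 ± 0.14 (SE), and -0.54 without control replicate 3. HSF2, which can form mixed trimers with HSF1, went up by 0.58 ± 0.16 (SE), and 0.40 without that library. HSF1 activity is set largely by the protein's phosphorylation and trimer state, which RNA does not show.

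The list was chosen on the TOM-1 change, over a background of 15.9% lower and 15.9% higher, so the counts by promoter letters are a description only. Of the 7 genes with the longer heat-shock letters, 5 were called lower in TOM-1 (HSPA8, HSPD1, HSP90AA1, HSP90AB1 and DNAJA1), and DNAJB6 and CHORDC1 were not called. Their log2 changes ran from -2.74 to 0.41 with a median of -1.61. Among the 26 tested genes whose windows lacked it, 19 were called lower and 3 higher, from -2.97 to 1.01 with a median of -0.75. Without control replicate 3 the counts were 6 lower and 1 higher of 7, with a median of -1.59, and 19 lower and 4 higher of 27, with a median of -0.60. HSPE1, HSPB1 and the inducible HSP70 pair were among the genes without those exact letters in their windows.

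In RS4;11 no member passed the threshold. The count was 0 of 38, where the background of all 17349 genes was also 0.0%, and 0 members had an unadjusted p below 0.05 in edgeR or a call in DESeq2's Wald test. An unadjusted p below 0.05 was itself rare over all genes, at 325 of 17349. The log2 changes ran from -0.38 for BAG3, which had only 3 to 36 counts in the RS4;11 libraries, to 0.02 for DNAJB4. Of the 38 members 36 were below 0, against 8386 of all 17349 genes, and the median was -0.12 (0.00 over all genes). For HSPA8 the 95% interval of the log2 change was -0.31 to 0.14, for HSP90AA1 -0.29 to 0.16, for HSPD1 -0.35 to 0.04 and for HSPA9 -0.34 to 0.18. For HSPE1 (-0.61 to 0.50) and HSPB1 (-1.04 to 0.57) it was wider. None of these 6 intervals reached the TOM-1 point value of the same gene. The list was chosen on the TOM-1 change, so that is a description and not a test. These 6 are among the members with larger TOM-1 changes, and those with smaller ones are not compared here. Library by library, the treated RS4;11 values lay wholly below the controls for 21 of 38 members and wholly above for 0, against a background of 9.05% and 7.72%. Without TOM-1 control replicate 3, which enters the shared estimate of spread, 17 of 39 members had an unadjusted p below 0.05. Over all genes it was 2207 of 18321. The 8 CCT subunits were among the 17 members, and 1 member was called. That 1 was HSPB1, at log2 -0.24 ± 0.05 (SE, adjusted p = 0.0481), where the background was 0.317%.

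The ADI-PEG20 change itself differed between the lines for 20 members, as tested by the interaction in the same edgeR model. It was lower in TOM-1 for 19 and higher for HSPA9, with a background of 6.05% lower and 5.89% higher. This contrast contains the TOM-1 change on which the list was chosen and is given as a description. Without TOM-1 control replicate 3, 25 were called lower and 5 higher, over 14.7% and 15.7%. The difference was largest for HSPE1 (-2.92 on the log2 scale), HSPA8 (-2.66), HSPB1 (-2.44) and HSPA1B (-1.97), and stood at 1.09 for HSPA9. Without that library these values were -2.46, -2.55, -1.59, -2.01 and 0.97. HSPA1A, at -1.89, was called neither with nor without that library. HSF1 and HSF2 (-0.62 and 0.72) were called without control replicate 3 and not with it.

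In control culture, without ADI-PEG20, most of these RNAs were less abundant in TOM-1 than in RS4;11. This comparison shares its TOM-1 controls with the treatment comparison. edgeR called 23 members lower and 3 higher in TOM-1, over a background of 18.4% lower and 16.2% higher, and 32 lower and 3 higher without control replicate 3, over 27.5% and 25.4%. The median log2 difference was -0.46, or -0.63 without that library, where all genes had 0.01 and -0.01. The lower calls include BAG3, and without replicate 3 also HSPA4L. Both had 0 counts in TOM-1 control and passed the filter only through other groups. HSPH1 stood 3.16-fold lower in TOM-1 (log2 -1.66 ± 0.13 SE, adjusted p = 8.84e-07), HSPA1B 3.73-fold (-1.90 ± 0.26, adjusted p = 0.000101) and DNAJB6 2.32-fold (-1.21 ± 0.10, adjusted p = 1.87e-06). Each of the 5 J proteins was called lower, with DNAJB1 at -1.02 ± 0.10 (adjusted p = 7.72e-06). Both HSP90 genes were lower too, HSP90AA1 by 2.19-fold and HSP90AB1 by 2.00-fold, as was HSPD1 by 1.67-fold (adjusted p = 4.71e-06, 7.00e-06 and 4.46e-05). HSPA8 was only 1.23-fold lower (adjusted p = 0.0418), a call kept in 5 of 21 alternative settings. Without control replicate 3 the log2 differences were -1.53 for HSPH1, -1.87 for HSPA1B, -1.21 for DNAJB6, -1.08 for DNAJB1, -1.04 for HSP90AA1, -1.07 for HSP90AB1, -0.73 for HSPD1 and -0.41 for HSPA8.

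Higher in TOM-1 control were 3 genes, with and without replicate 3. FKBP4 was 6.80-fold higher (log2 2.77 ± 0.18 SE, adjusted p = 2.85e-07), HSPA1A 4.64-fold (2.21 ± 0.50, adjusted p = 0.00448) and CCT6A 1.33-fold (0.42 ± 0.10, adjusted p = 0.00490), or 2.51, 2.06 and 0.43 on the log2 scale without that library. The inducible pair thus went in opposite directions between the lines, HSPA1A higher and HSPA1B lower in TOM-1, and their sum stood at -1.32 ± 0.18 on the log2 scale (adjusted p = 0.000107), or -1.36 without control replicate 3. How reads were split between these near-identical genes could differ with each line's sequence and was not tested. HSPB1, HSPE1, TRAP1, HSPB11, HSF1, HSF2, PTGES3, ST13, CDC37, UNC45A, CCT3 and CCT7 were not called, several of them genes whose TOM-1 control replicate 3 stood apart. Without it, HSPB1 was at -1.23 and HSPE1 at -0.78 in TOM-1.

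**Figure D4:**
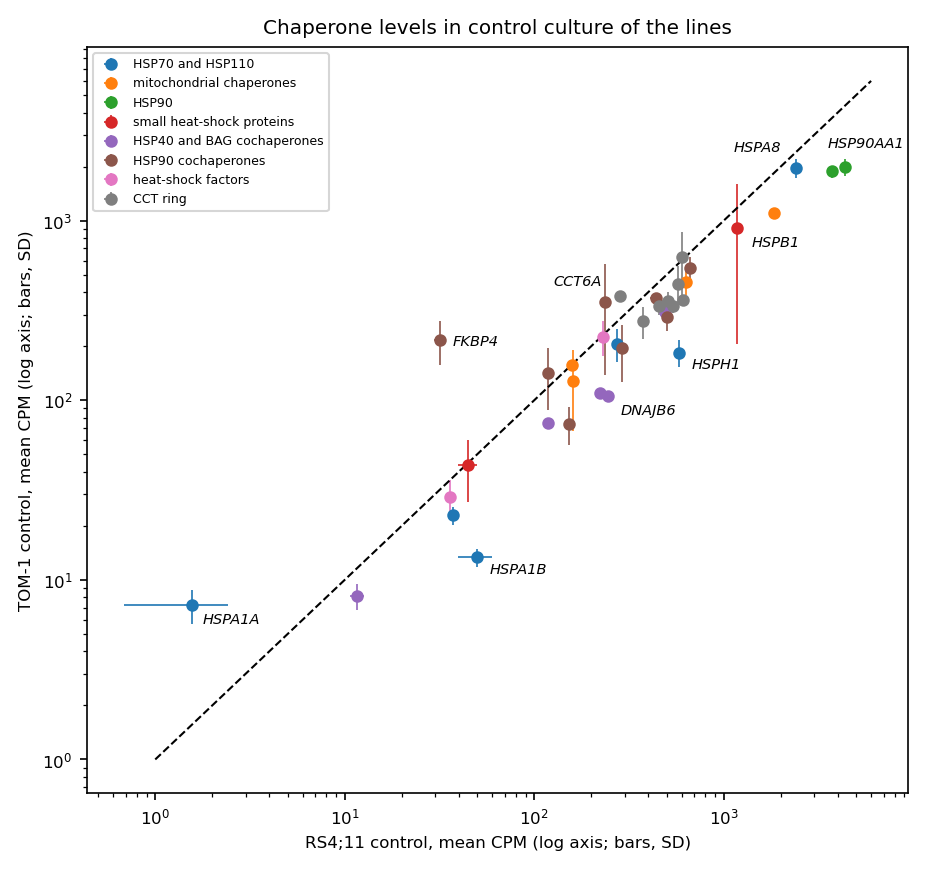
Mean CPM of 37 members in control culture, RS4;11 on the x axis and TOM-1 on the y axis (log axes, bars SD over 3 libraries, dashed line equal levels). Most points lie below the line. FKBP4 (217 against 31.9 CPM) and HSPA1A (7.25 against 1.56 CPM) lie farthest above it, and CCT6A also lies above. CDC37, UNC45A and CCT7 lie above it too, but not without TOM-1 control replicate 3.

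Other genes of the same pathways, from lists drawn up by function, are given beside the TOM-1 background of 15.9% lower and 15.9% higher (19.8% and 21.8% without control replicate 3), and no list was tested against another. Among 15 other genes of the HSP70 cycle 5 were called lower and 3 higher, with HSPBP1, an exchange factor, at -1.33 (-0.64 without control replicate 3) and the J protein DNAJB2 at 1.48 (1.99). The inducible HSP70 gene HSPA6, a member of both this list and that of heat-inducible genes, was called higher in each and was added after its values were seen. It had 0 counts in the 3 TOM-1 control libraries and 0, 5 and 11 counts in the treated ones, against 30, 41 and 48 in RS4;11 control. The treated mean was at least 1.70-fold the limit that 0 counts allow, but 0.779 times it without treated replicate 3, so no rise is read from it. Among 12 other HSP90 cochaperones 6 were lower and 3 higher, with RUVBL2, a subunit of the R2TP complex, at -1.22 (-0.71) and the isomerase PPID, also called CYP40, at 1.86 (1.71). PPID measured 1.79, 3.20 and 1.55 CPM in TOM-1 control and 7.96, 8.17 and 7.75 CPM with ADI-PEG20, all far below the 42.0 to 49.9 CPM of RS4;11 control. Of 16 other mitochondrial folding and protease genes 4 were lower and 2 higher, among them GRPEL1, the nucleotide exchange factor of HSPA9, at -1.08 (-0.85), and the protease CLPP at -1.05 (-0.60). GRPEL1 and its partner HSPA9 therefore moved in opposite directions. The 2 genes of this list called higher, as HSPA9 was, were CLPX at 0.54 (0.29) and the J protein DNAJA3 at 0.42 (0.37). For prefoldin and the CCT cofactors 2 of 9 were lower and 1 higher, with PDCL3 at -1.22 (-0.87) and PFDN6 at -1.21 (-0.70). With all libraries the counts of these mitochondrial and prefoldin lists are near the background. Of 13 other heat-inducible genes 11 were tested, and 2 were lower and 3 higher, counts also near the background. HMOX1, haem oxygenase, was at 1.53 (1.60) and the ubiquitin gene UBB at -0.97 (-0.75), and the 3 higher include HSPA6. Of 8 other small heat-shock proteins 2 were tested and 0 called, with 0 at an unadjusted p below 0.05. Without control replicate 3 the lower and higher calls were 6 and 3 for the HSP70-cycle genes and 6 and 5 for the HSP90 cochaperones. The mitochondrial list had 5 and 5, the prefoldin and CCT cofactors 2 and 2, and the heat-inducible genes 2 and 5.

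The chaperones of the endoplasmic reticulum (ER) and the proteasome served as neighbouring systems of protein quality control. Against that same background of 15.9% in each direction, 8 of 17 ER genes were called lower and 4 higher in TOM-1, with a median of -0.14 (-0.38 without control replicate 3). Without that library 9 were called lower and 6 higher, over 19.8% and 21.8%. SDF2L1 was at -2.27 (-1.21) and SEL1L, of the ER-associated degradation complex, at 1.54 (1.15). The core particle of the proteasome had 12 of 14 lower and 0 higher with and without control replicate 3, with a median of -1.003 (-0.65). PSMB3 was at -1.84 (-1.02) and PSMB1 at -1.53 (-1.07). In RS4;11 0 genes of any of these lists passed the edgeR threshold with all libraries, and 1, a mitochondrial gene, had an unadjusted p below 0.05, with medians of -0.03 for the ER genes and -0.13 for the proteasome core.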

How the data were processed

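The authors deposited 1 table of raw read counts per Ensembl gene, not normalized, for 12 libraries. Per the labels' protocols, RNA came from a column kit and libraries from poly(A) capture, and the submitters' processing notes name STAR, SAMtools, featureCounts and hg38. Versions, strand use, annotation release and the treatment of reads with several matches are not given in the sources used here. Groups and replicate numbers came from sample titles. Gene symbols were matched by Ensembl identifier (60463 of 60664 identifiers), lengths, positions and overlaps from GENCODE 29 on GRCh38 (58396 identifiers).

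Counts were analysed with edgeR 4.0.16 in R 4.3.3 (filterByExpr, TMM, 1 group-means model over 12 libraries, glmQLFit and glmQLFTest, Benjamini-Hochberg adjustment over 17349 genes, or 18321 without TOM-1 control replicate 3, threshold 0.05). The SE is the log2 fold change over the square root of F, and intervals are at 95%. A count of 0 was taken to allow up to 3 counts, for counting error only. The fit was tested on simulated data. Figures were drawn with matplotlib 3.10.9.

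Alternatives were DESeq2 size factors, upper-quartile scaling, leaving low counts in, requiring a mean count of 10, DESeq2 1.42.0, a replicate block, the 6 libraries of a contrast alone, transcript length offsets (lowess span 0.3), voom in limma 3.58.1 with sample quality weights, and each library left out. Members, lists and tests were chosen with earlier results of these data known. Library values were given for 14 genes named by rule, for the member of each role with the largest TOM-1 change at a mean of 5 CPM or more, and for HSPA9, CDC37, PPID and the 2 genes at 0 counts, chosen from their values. From each further list 2 genes were named, those with the largest called TOM-1 change at a mean of 5 CPM or more in a group. HSPA6, below that level, and CLPX, DNAJA3 and the marker CSF1R were added from their values.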

Additional observations from a re-analysis of the deposited data

Results flagged for a closer look

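For 20 of the chaperone genes the ADI-PEG20 effect differed between the lines in edgeR's interaction contrast (adjusted p under 0.05), where the background over all genes was 6.05% lower and 5.89% higher, or 14.7% and 15.7% without TOM-1 control replicate 3. The contrast contains the TOM-1 change on which the list was chosen, so the count is a description. Each value here is the log2 change in TOM-1 minus that in RS4;11, with all libraries. Among the HSP70 and HSP110 genes it was -2.66 for HSPA8, -1.97 for HSPA1B and -1.02 for HSPH1. In the mitochondrial group it was -2.92 for HSPE1, -1.48 for HSPD1, -1.27 for TRAP1 and, in the other direction, 1.09 for HSPA9. The HSP90 genes stood at -1.71 for HSP90AB1 and -1.38 for HSP90AA1, with the cochaperones AHSA1 at -1.40, FKBP4 at -1.32, STIP1 at -0.65 and ST13 at -0.51. The J proteins DNAJA1 and DNAJB1 stood at -1.46 and -0.54, and HSPB1 at -2.44. Of the CCT ring, CCT3 was at -1.68, CCT6A at -0.65, TCP1 at -0.58 and CCT5 at -0.50. TOM-1 control replicate 3, the library that stood apart, enters each of these values, and without it HSPB1 was at -1.59, HSPE1 at -2.46 and HSPA8 at -2.55. Groups of 3 libraries are too small for a test of single outlying values.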

How the results depend on the processing

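The direction of every member called with all libraries held in all alternatives run, for 32 members in TOM-1, 20 in the difference between the lines and 26 in the line comparison. Of these 23, 14 and 17 were called in every alternative. The TOM-1 median of -0.77 became -0.89 with transcript length offsets and -0.66 with voom weights, and -0.88 to -0.64 with 1 library left out, lowest without control replicate 2 and closest to 0 without control replicate 3. In RS4;11 the count of called members was 0 to 1 with 1 library left out, the 1 being without TOM-1 control replicate 3. In the line comparison the 6 libraries alone gave 16 called members (14 lower, 2 higher) against 26.

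Direction changed only for members not called with all libraries. In TOM-1 DNAJA2 was at -0.010 with length offsets, and DNAJB4 ran from -0.12 to 0.10 with 1 library left out. In RS4;11 voom gave -0.046 for DNAJB4 and -0.035 for HSPB11, and leaving out 1 library gave -0.67 to 0.24 for HSPA1A, -0.22 to 0.13 for HSPA1B, -0.12 to 0.049 for HSPA14, -0.11 to 0.032 for HSPE1, -0.071 to 0.092 for HSPB11, -0.053 to 0.06 for DNAJB4 and -0.068 to 0.043 for ST13. In the difference voom gave 0.039 for DNAJB4 and 0.061 for CCT8, and leaving out 1 library -0.14 to 0.085 and -0.12 to 0.070. In the line comparison upper-quartile scaling gave 0.0051 for HSPB11 and 0.010 for TRAP1, the 6 libraries alone 0.012 for TRAP1, length offsets 0.065 for HSPB11, 0.11 for HSF1 and 0.10 for TRAP1, and voom -0.31 for CCT7, -0.098 for UNC45A and -0.00050 for CDC37. Leaving out 1 library gave -0.40 to 0.075 for HSPB11, -0.045 to 0.77 for CDC37, -0.094 to 0.40 for UNC45A, -0.10 to 0.020 for TRAP1, -0.23 to 0.013 for HSF1 and -0.32 to 0.17 for CCT7. The cause was not tested.

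Whether replicate numbers pair the samples cannot be settled from 3 libraries per group. Across genes, same-numbered control and treated libraries deviated with r of -0.06 to -0.01 in TOM-1 and 0.03 to 0.15 in RS4;11. Libraries with different numbers gave -0.053 to 0.07 in TOM-1 and -0.095 to 0.055 in RS4;11. With the replicate number as a block, 32 members were called in TOM-1, 0 in RS4;11, 18 in the difference and 24 in the line comparison. Depth limits BAG3 and HSPA4L, whose counts were near 0 in at least 1 group. HSPA1A had low counts too, down to 17 in RS4;11 libraries.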
